A study of Mus musculus with 2 samples.

Results

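The genes described here are 9 transcription factors that build and maintain the myeloid lineage, namely Spi1, Cebpa, Cebpb, Cebpd, Maf, Runx1, Mitf, Tfec and Tfeb. They were chosen by name, and all probes on the array whose RefSeq accession belongs to 1 of these genes were read. This gave 11 probes among 39424 in all, with 2 probes each for Mitf and Runx1 and 1 for each of the others. The 9 genes stand among 20656 genes that could be named on the array.

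RNA was taken from bone marrow-derived macrophages (BMDMs), which are grown from mouse bone marrow in the presence of M-CSF. By the methods, the marrow came from male mice of the genotype Crif1 f/f at 8 weeks of age, so both cultures carried the floxed Crif1 alleles, and no Cre driver is named for these cultures. One culture was left untreated and the other received IL-4 for 18 h, and each was hybridised to 1 single-colour Agilent mouse array. The dose of IL-4 on these cultures and the number of animals behind each RNA are not given in the sources used here. With 1 array per condition there was no replicate check and no test between conditions, so the differences below describe these 2 arrays. In bulk RNA, a change in the number of cells that express a gene and a change in RNA per cell cannot be told apart.

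SPI1 (PU.1) is an ETS factor that opens myeloid enhancers, and it works there together with the C/EBP factors, which are leucine zipper proteins, and with RUNX1, which binds DNA as a dimer with CBFB. MAF is a large leucine zipper factor found in mature macrophages. MITF, TFEB, TFEC and their relative TFE3 form the MiT/TFE family, whose proteins pair with each other and bind E-box sequences. TFEB and TFE3 are known for control of lysosomal genes, MITF for its roles in melanocytes, mast cells and osteoclasts, and TFEC for an expression largely restricted to myeloid cells.

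The 11 probes were each printed in 1 spot, and all 11 were well above background on both arrays by the flag of the scanner software. None of these spots carried an outlier flag or was saturated. The level given is the background-subtracted intensity in scanner units, and the difference is the log2 of the IL-4 intensity minus that of the untreated intensity after subtraction of the 75th percentile of each array. This percentile of the log2 intensities was 9.84 for untreated and 9.94 for IL-4-treated cells, so scaling lowers each raw ratio slightly. Intensities of different probes are not compared, because probes differ in how well they bind.

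The MiT/TFE factors Tfec and Mitf, but not Tfeb, had the largest differences of the 9 genes. The intensity of the Tfec probe was 195 without treatment and 1064 after IL-4. After scaling Tfec was 5.09-fold higher after IL-4, a log2 difference of 2.35. The SD of such a difference between spots, taken as the median over 47 probes that lie at a like signal and have 10 spots each, was 0.066, and the error that the software assigned to the 2 intensities combined to 0.21. The Tfec difference was therefore larger than both measures of technical error, neither of which covers the spread between cultures. Tfec ranked 37 from the highest among the 12744 genes that stood well above background on each of the 2 arrays.

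The sequence in front of the Tfec start is shown because Tfec had the largest difference and because its window holds a match to the letters that STAT6, the factor activated by the IL-4 receptor, is known to bind. The 250 bases before the annotated start of Tfec on chromosome 6 are given from RefSeq (GRCm38.p6), 5′ to 3′ on the strand of the gene, with motif matches in capitals. They are, from left to right, ACCACA, which is the RUNX motif TGTGGT read on the other strand, and the STAT6-type match. The Mitf line gives the first of 3 annotated starts in the same way, and its capitals mark a C/EBP match and then a RUNX match.
Tfec, chr6:16898442-16898691, minus strand: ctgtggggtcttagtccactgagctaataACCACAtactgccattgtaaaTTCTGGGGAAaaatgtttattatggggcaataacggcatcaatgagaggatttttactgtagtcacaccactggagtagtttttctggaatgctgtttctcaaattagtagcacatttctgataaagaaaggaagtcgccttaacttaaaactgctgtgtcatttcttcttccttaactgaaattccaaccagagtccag
Mitf, chr6:97806808-97807057, plus strand: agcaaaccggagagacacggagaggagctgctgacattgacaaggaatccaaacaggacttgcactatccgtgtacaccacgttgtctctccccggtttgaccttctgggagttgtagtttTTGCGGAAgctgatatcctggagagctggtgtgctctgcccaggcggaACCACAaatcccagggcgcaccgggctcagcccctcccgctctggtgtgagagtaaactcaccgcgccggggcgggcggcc

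The STAT6-type motif was searched as TTCNNNNGAA on both strands of the windows from 250 bases before to 50 bases after each start. The Tfec window held 1 match, TTCTGGGGAA, which begins at position -200 from the start. Of 32851 promoter windows of all genes, 6.95% held this motif, so a match in a single window is a description of these letters and not of a bound site. No STAT6-type match was found in any of the 3 Mitf windows, and 1 of the 3 windows of Tfeb held one, TTCCGATGAA at position -234. The variant with 3 bases between TTC and GAA, TTCNNNGAA, which 8.3% of all windows hold, had no match in the 11 windows of the 6 genes with an entry, Cebpa, Cebpb, Mitf, Runx1, Tfeb and Tfec.

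Motifs of the factors themselves were searched in the same windows. The RUNX motif TGTGGT, held by 16.8% of all windows, was matched at position -221 in Tfec, at position -81 in the first Mitf window, and in 1 of the 2 Runx1 windows. The C/EBP motif TTNNGCAA, held by 10.8% of all windows, was matched in 2 Mitf windows and in 1 Tfeb window. The PU.1 core GAGGAA, held by 28.3% of all windows, was matched at position 33 in Tfec, after the start, and in 1 Runx1 window. The E-box CACGTG, held by 7.15% of all windows, was matched in 1 Runx1 window at position -71, and neither Cebpa nor Cebpb held any of the 6 motifs. The motifs overlapped at none of these matches.

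The brighter Mitf probe had an intensity of 5989 in untreated BMDMs and 14391 after IL-4, a 2.24-fold higher signal after scaling (log2 difference 1.17, SD between spots 0.052). The dimmer Mitf probe had intensities of 1840 and 3897, which is 1.98-fold higher (log2 difference 0.98). Both probes carry the same RefSeq accession, 1 of 17 listed for Mitf, so these probes are not assigned here to different transcripts. They were higher on the IL-4 array by a similar amount, although the gap of 0.18 between their log2 differences was larger than the SD of 0.074 expected from spots. The brighter probe passed the 2-fold threshold and the dimmer one lay just inside it. Mitf ranked 214 among the 12744 genes.

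Tfeb did not share this shift. Its probe had an intensity of 500 in untreated BMDMs and 606 after IL-4, a 1.13-fold difference (log2 difference 0.18). This was 2.79 times the SD between spots but smaller than the software error of 0.21. Tfe3, the fourth member of the family, had intensities of 12098 and 14574 at its brighter probe (log2 difference 0.17) and a log2 difference of 0.019 at its dimmer probe. On the log2 scale the difference of Tfec exceeded that of Tfeb by 2.17 and the difference of Mitf exceeded that of Tfeb by 0.99, and these gaps do not depend on a constant scaling of the arrays. Within the family, the genes thus fell into a pair with at least 2-fold higher signal at the brightest probe and a pair with small differences. At the brightest probe, the small differences lay somewhat above the 75th percentile of all genes, 0.15. The median log2 difference of all genes was -0.01.

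**Figure D1:**
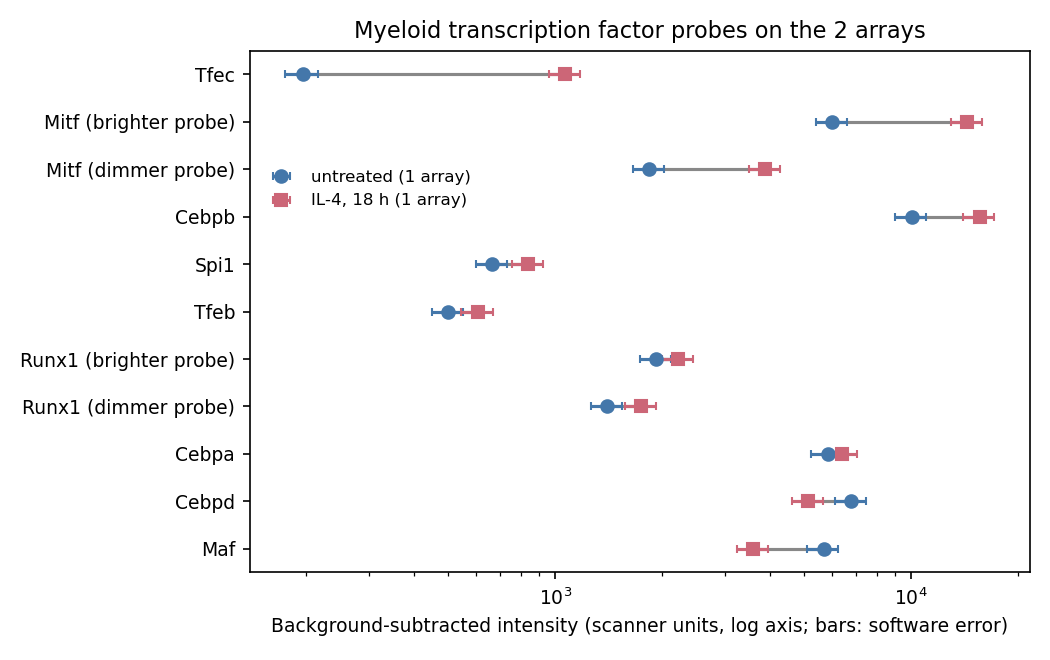
Background-subtracted intensity in scanner units (log axis) of the 11 probes in untreated BMDMs (circles) and in BMDMs treated with IL-4 for 18 h (squares), 1 array each, with bars for the error estimated by the scanner software. The 2 values lie far apart for Tfec, at 195 and 1064, and for both Mitf probes, and lie close together for Cebpa, at 5828 and 6399.

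The C/EBP genes went in different directions. Cebpb, which encodes C/EBPβ, a factor needed for expression of Arg1 in macrophages, had an intensity of 10026 in untreated BMDMs and 15569 after IL-4, a 1.45-fold higher signal after scaling. Its log2 difference of 0.54 was 2.62 times the software error. Cebpd, which encodes C/EBPδ, a factor linked to acute inflammatory responses, had intensities of 6768 and 5143 and was 1.41-fold lower (log2 difference -0.50), or 2.43 times the software error. The gap between the 2 genes was 1.03 on the log2 scale, although each on its own stayed inside the 2-fold threshold.

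Cebpa, whose product drives commitment to the granulocyte and monocyte lineage, had intensities of 5828 and 6399 and a log2 difference of 0.04, which is less than the SD of 0.050 between spots. Its sign turned to -0.02 after quantile normalization and with scaling on probes well above background on both arrays. Cebpe, a later factor of granulocyte maturation that is not among the 9 genes, was 2.96-fold lower, with intensities of 550 and 199. Of the other 4 C/EBP family genes looked at, Cebpe was the only one past 2-fold, and Cebpz, Cebpg and Ddit3 lay between -0.07 and 0.67 on the log2 scale.

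Maf had the largest decrease of the 9 genes. Its intensity was 5676 in untreated BMDMs and 3606 after IL-4, a 1.69-fold lower signal (log2 difference -0.75, SD between spots 0.050), and 390 of the 12744 genes were at least this low, Maf included. This difference was 3.7 times the software error. Mafa, Maff, Mafg and Mafk, other genes of the MAF family, were also measured on both arrays, and their log2 differences lay between -0.07 and 0.15.

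Spi1 and Runx1 differed little between the arrays. Spi1 had an intensity of 666 in untreated BMDMs and 840 after IL-4, a log2 difference of 0.23 that was larger than the SD of 0.061 between spots and 1.15 times the software error. The brighter Runx1 probe had intensities of 1923 and 2218 (log2 difference 0.11), and the dimmer one, designed to another of the 4 listed transcripts, had 1397 and 1744 (log2 difference 0.22). The gap between these probes was 0.11 in size, against an SD of 0.079 expected from spots. Cbfb, the partner of RUNX1, had a log2 difference of -0.11, and none of the 6 other RUNX and CBF genes passed 2-fold in either direction.

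**Figure D2:**
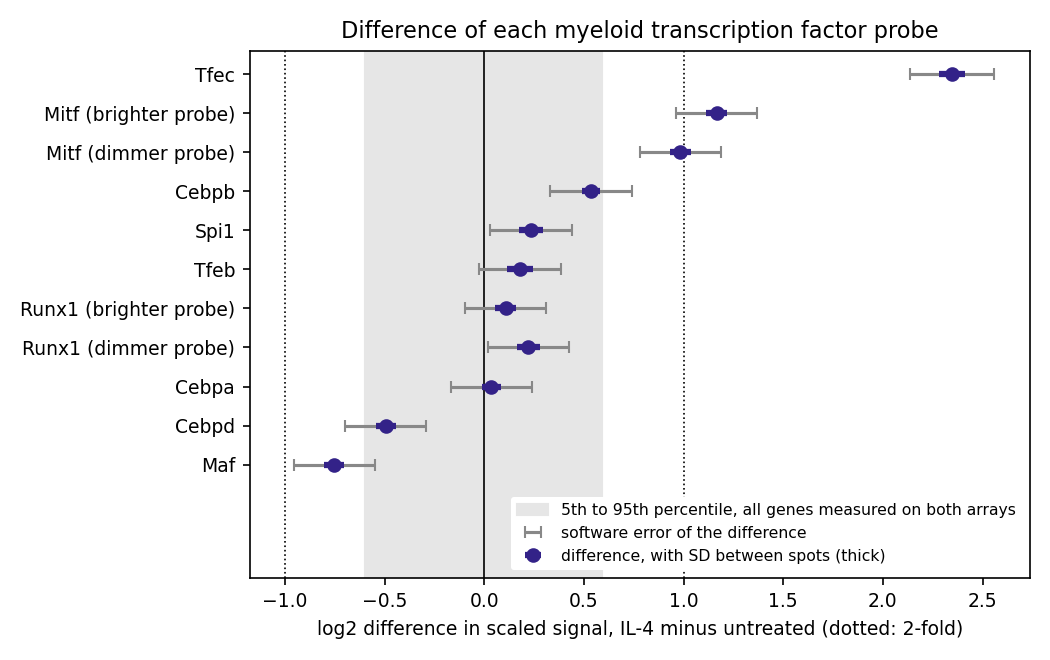
Log2 difference in scaled signal, IL-4-treated minus untreated, for each of the 11 probes, with thin bars for the software error, thick bars for the SD between spots, dotted lines at 2-fold, and a grey band from the 5th to the 95th percentile of 12744 genes (-0.60 to 0.59). Tfec and both Mitf probes lie above the band, Maf lies below it, and the other genes lie inside.

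Read as a group, 2 of the 9 genes, Tfec and Mitf, had a signal higher by 2-fold or more on the IL-4 array, and 0 had one lower by that much. The same threshold was passed upwards by 2.31% and downwards by 1.44% of the 12744 genes measured on both arrays. These shares were 3.06% and 3.35% of the 14073 genes measured on 1 array or both, where a value on 1 array counts as a bound. At a 1.5-fold threshold, the same 2 genes were higher, against 5.03% of all genes, and 1, Maf, was lower, against 5.27%. Maf came inside 1.5-fold with median scaling (-0.54) and with spike-in scaling (-0.42), and Cebpb passed 1.5-fold upwards without scaling (0.63), with normexp (0.59), with median scaling (0.75) and with spike-in scaling (0.87). A single gene is a larger share of 9 than any of these background shares, so the counts are coarse, and whether the group differs from all genes was not tested. The median log2 difference was 0.18 for the 9 genes and -0.01 for all genes.

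In order of their differences, the genes ran Tfec, Mitf, Cebpb, Spi1, Tfeb, Runx1, Cebpa, Cebpd and Maf. The gaps between Spi1, Tfeb, Runx1 and Cebpa, each to the next, were between 0.056 and 0.072 on the log2 scale and smaller than the SD expected from spots, so neighbours in this run were not separated by that measure. Every other gap between neighbours was at least 3.69 times that SD. The software error was larger, at least 0.20 for the difference of each gene. The smallest of these other gaps, 0.26 from Cebpd to Maf and 0.30 from Cebpb to Spi1, are not clearly separated by that measure.

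**Figure D3:**
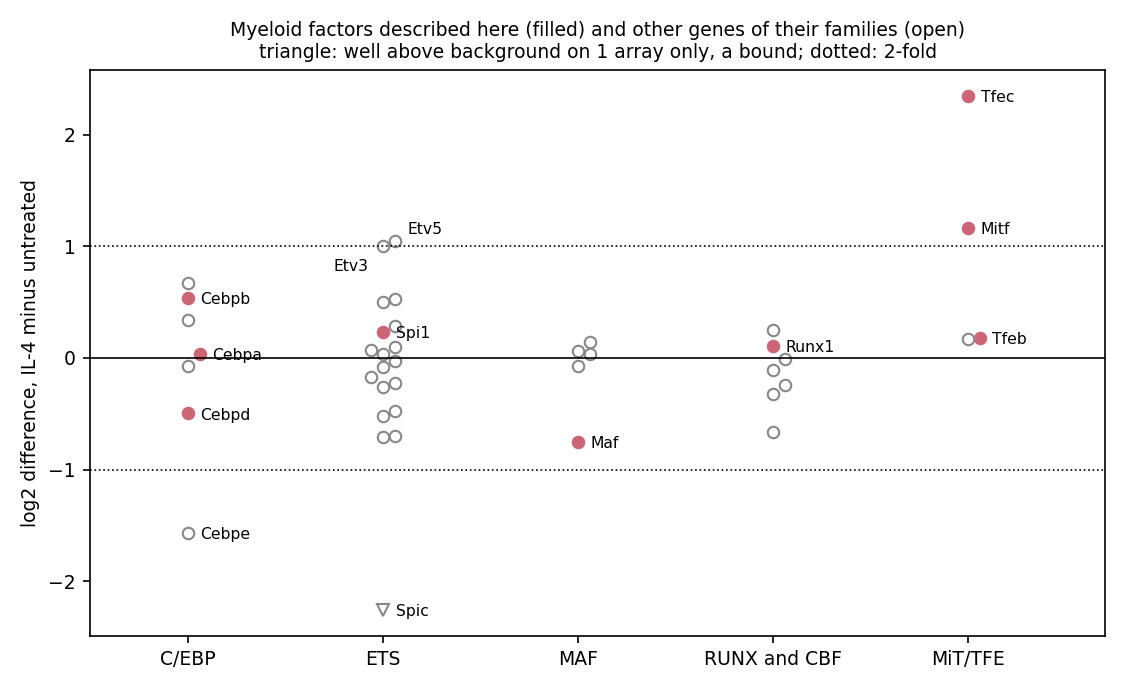
Log2 difference, IL-4-treated minus untreated, of the 9 myeloid factors (filled) and of the other genes of their families (open), by family, with triangles where a gene was well above background on 1 array only and the value is a bound. In the MiT/TFE family Tfec and Mitf lie above the 2-fold line and Tfeb lies below it, and in the ETS family Spic has the lowest value.

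Of 23 other ETS factors looked at beside Spi1, 18 were well above background on at least 1 array. Etv5 was 2.07-fold higher, with intensities of 6844 and 15206, and Etv3, with intensities of 981 and 2105, lay just past the 2-fold threshold. Both lay below it under some other settings, with lowest log2 differences of 0.96 and 0.95. Spic, a close relative of Spi1 known from red pulp macrophages, had an intensity of 124 in untreated BMDMs and was not well above background after IL-4 (intensity 26), so it was at least 4.78-fold lower, a bound that normexp background correction reduced to a log2 difference of -1.10. The median of the 17 ETS genes measured on both arrays was -0.03, close to that of all genes, and its sign turned under 5 other settings.

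Genes listed as targets of these factors were then counted, from lists drawn from general knowledge rather than from binding data in these cells. List medians that lie close to 0 change sign with the scaling, since spike-in scaling moves the median of all genes by 0.33 and median scaling by 0.21, and they are read here against the median of all genes. Of 14 PU.1 target genes, all were measured on both arrays, 0 were at least 2-fold higher and 1 was at least 2-fold lower, namely the Fc receptor gene Fcgr1 (2.34-fold, with intensities of 2441 and 1118), which came inside 2-fold, at -0.90, with spike-in scaling. Csf1r, which encodes the M-CSF receptor, had log2 differences between -0.11 and 0.09 at its 3 probes. The median of the list was -0.04, but its genes lay on both sides of it, with 6 above 0 and 8 below. Of all genes measured on both arrays, at most 58.3% lay below 0. Lyz2, the macrophage lysozyme gene, had intensities of 98702 and 64890 (log2 difference -0.70), and Itgam, which encodes CD11b, had a log2 difference of -0.71 at its brightest probe and between -0.27 and -0.24 at the others. Subunit genes of the phagocyte oxidase differed in direction, with Ncf1 at -0.70, Cybb at -0.57 and Ncf4 at 0.68. The list as a whole thus did not move one way, and single genes in it lay outside the 5th to 95th percentile of all genes, which ran from -0.60 to 0.59.

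Among 12 C/EBP target genes, 11 were measured on both arrays. Arg1, the arginase of alternatively activated macrophages, had an intensity of 85 in untreated BMDMs and 19688 after IL-4, a 216-fold higher signal, and this log2 difference of 7.76 became 6.79 with normexp. Il6 was 2.14-fold higher from an intensity of 66, a value that dropped to a log2 difference of 0.45 with the normexp background step, and Cebpe was lower as given above. The other 8 genes stayed inside 2-fold, among them Csf3r, the G-CSF receptor gene, with intensities of 37378 and 46118 (log2 difference 0.20). The median of the 11 genes was -0.11, so Arg1 stood apart from the other genes in the list.

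Ocstamp, which encodes a protein needed for fusion of osteoclast precursors, is 1 of 10 osteoclast genes listed here as MITF targets. It was 7.77-fold higher, with intensities of 79 and 659. This log2 difference of 2.96 became 2.02 with normexp. Whether MITF controls Ocstamp in these cells was not tested. The other 8 measured genes were inside 2-fold, and the list median was 0.05. Ctsk, which encodes cathepsin K, had intensities of 14803 and 13214 (log2 difference -0.26), and Acp5, the tartrate-resistant phosphatase gene, had 32683 and 41757 (log2 difference 0.25). Atp6v0d2, a subunit gene of the proton pump, had a log2 difference of 0.64 at the brighter of its 2 probes and 0.86 at the dimmer one. In all, 5 of the 9 measured genes lay above 0 and 4 below, and Calcr was well above background on neither array.

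Of 30 lysosomal and autophagy genes known as TFEB targets, 29 were measured on both arrays. All 29 of these were inside 2-fold at the probe read, with a range of -0.40 for Ctsd to 0.86 for Sgsh. Sgsh was read from the brighter of its 2 probes, and the other probe had a log2 difference of -0.42. The other probe of Ctsd had -0.81 and that of Gaa had -0.43, both below this range. The list median was -0.11, against -0.01 for all genes. Of the 29 genes, 25 lay below 0, against at most 58.3% of all genes. The sign of the list median turned with median scaling and with spike-in scaling, which move all genes up. Rragd, a GTPase gene of the same list, was well above background in untreated BMDMs only and was at least 3.14-fold lower, a bound that normexp reduced to a log2 difference of -0.67.

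For MAF, 3 of 6 listed target genes were measured on both arrays, and these 3 (C1qa, C1qb and C1qc, the subunits of complement C1q) had log2 differences between -0.17 and 0.09. Neither Il10 nor Cd163 reached a signal well above background, and no probe was matched to Il12b. A lower Maf signal was seen beside C1q subunit signals that stayed inside 2-fold.

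**Figure D4:**
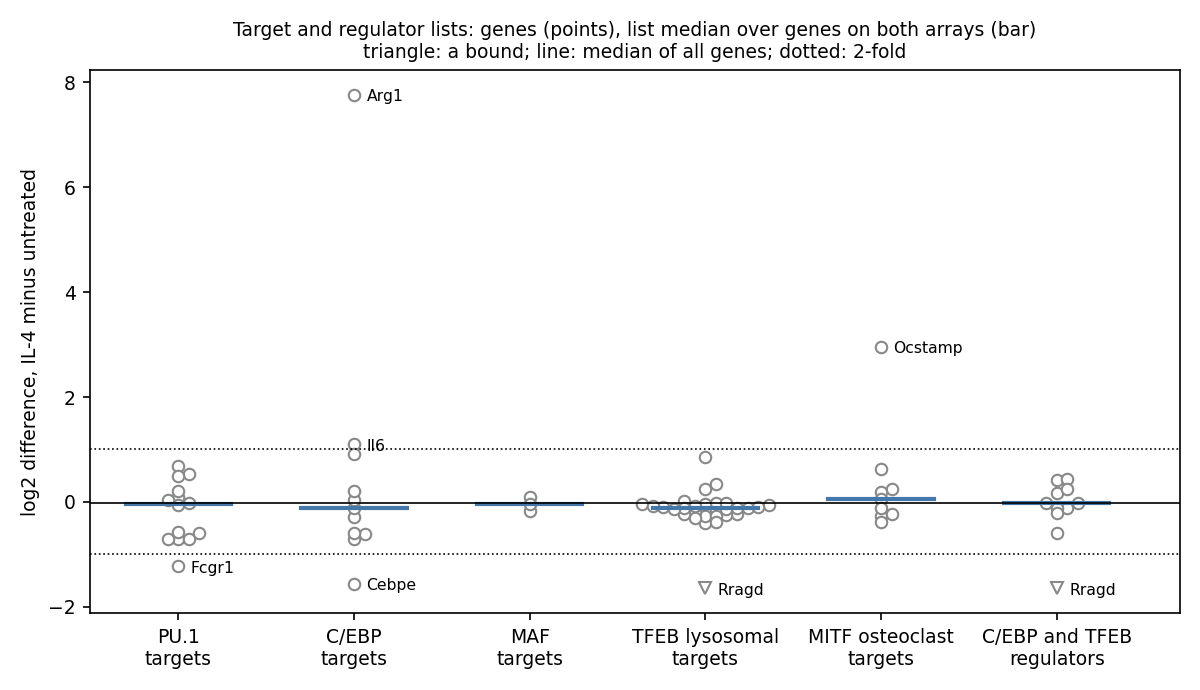
Log2 difference, IL-4-treated minus untreated, of genes listed as targets or regulators of the myeloid factors, with a bar at the median of each list over genes measured on both arrays and dotted lines at 2-fold. Most genes lie between the dotted lines, and Arg1 (7.76) and Ocstamp (2.96) lie above the rest of their lists.

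The label of the cells was checked against defining genes. Of 7 macrophage markers, 6 had a matched probe and all 6 were well above background on both arrays. Of these, Fcgr1 and Mertk were at least 2-fold lower after IL-4, by 2.34-fold and 2.2-fold, and both came inside 2-fold with spike-in scaling. The median was -0.71, and it came to -0.49 with the median over the probes of a gene and to -0.37 with spike-in scaling. Markers of other cell types also gave signal. Of these, 4 of 4 fibroblast markers and 6 of the 6 neutrophil markers with a matched probe were well above background on both arrays. Col1a1, for example, had intensities of 58153 and 49150. In untreated and IL-4-treated BMDMs, summed intensities were 90668 and 82728 for the fibroblast list and 73979 and 81795 for the neutrophil list. The same flag was passed on both arrays by 12744 of the 20656 named genes. Whether fibroblasts or neutrophils were present in the cultures was not tested. Csf3r, counted here as a neutrophil marker, is also in the list of C/EBP targets. None of these 10 fibroblast and neutrophil genes passed 2-fold in either direction, and the medians were -0.09 and -0.14. Of 5 mast cell and basophil markers, 4 were well above background in untreated BMDMs and 2 after IL-4. The summed intensities over all 5, those not above background included, were low at 389 and 198. Cpa3, the mast cell carboxypeptidase gene of that list, was at least 3.51-fold lower, with intensities of 91 and 6, and its log2 difference ranged from -3.94 to -1.03 over the other settings, the latter with normexp. On both arrays, 3 of 5 T cell, 1 of 5 B cell, 3 of 4 eosinophil and 1 of 4 dendritic cell markers were well above background, with summed intensities of at most 1027 for a list, and 0 of 4 erythroid markers were. The part that such cells have in the values of the 9 genes was not tested.

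**Figure D5:**
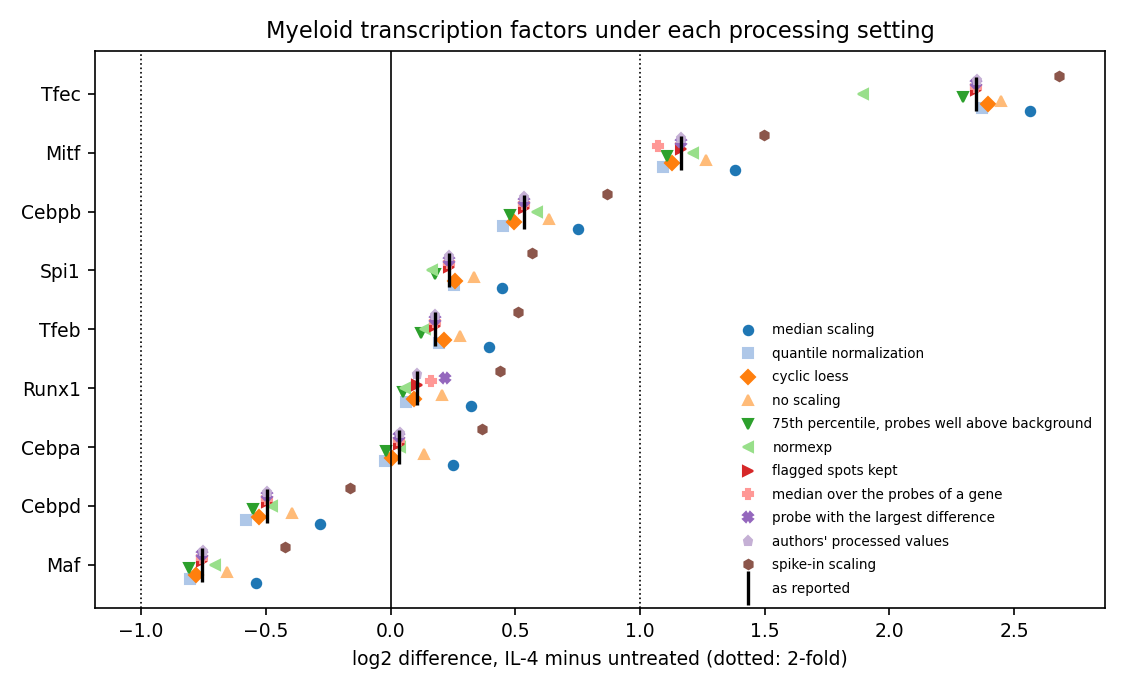
Log2 difference, IL-4-treated minus untreated, of each of the 9 genes as reported (black bars) and under 11 other processing settings (coloured symbols), with dotted lines at 2-fold. Tfec stays between 1.90 and 2.68 and Mitf between 1.07 and 1.5, the other 7 genes stay inside 2-fold, and Cebpa is the only gene with values on both sides of 0.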

How the data were processed

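RNA was labelled with Cy3 and hybridised to 1 array per culture. The authors deposited scanner files made with Feature Extraction 10.10.1.1. The deposited intensity per spot has had its background subtracted and its spatial trend removed, without scaling between arrays, and per the file headers other columns hold flags. The deposited table of processed log2 values names no scaling, and was used as an alternative. Both arrays lie on the same slide and were scanned together. Control spots and outlier spots were left out, log2 intensities were averaged per probe, and each array's 75th percentile was subtracted. Genes were named through RefSeq accessions (27229 of 39424 probes matched) in a table of GRCm38.p6, while the array design uses mm9, so positions are given only for RefSeq promoters. A gene was read from its brightest probe. A probe well above background on 1 array only gives a bound, set against the lowest such signal of the other array. The named genes are the 9 factors and, from each list, up to 3 genes a direction, by size of difference, among those at least 2-fold changed, and further list genes were named after their values were seen. The 9 genes and the lists were chosen with earlier results of these data known, and 1 gene of the lists is not reported here. Scaling and counting were tested on simulated data. Alternatives were 5 other scalings, cyclic loess, normexp (offset 50) on median rather than mean pixel values, since a mean column is not in the files used here, flagged spots kept, 2 other rules for several probes, the processed values, a 1.5-fold threshold and other filters on dim probes. The number of arrays limits the precision. Calculations used R 4.3.3 with limma 3.58.1, and Python 3.11.15 with pandas 2.3.3 and numpy 2.4.6.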

Additional observations from a re-analysis of the deposited data

How the results depend on the processing

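No paired analysis was possible because there was 1 array for each condition. Tfec and Mitf were at least 2-fold higher, and the other 7 genes inside 2-fold, in each of the 11 settings that give a value for each gene. These settings are not independent checks. No spot of the 9 genes was flagged, and a gene with a single probe keeps its value under the rules for several probes. At the 1.5-fold threshold 1 gene, Maf, was lower, by construction of the threshold. The median of the 9 genes, 0.18, moved to 0.51 with spike-in scaling, 0.39 when arrays were scaled to their medians, 0.28 when left unscaled and 0.12 when the percentile came from probes measured on both arrays. These 4 settings moved the median of all genes by 0.33, 0.21, 0.10 and -0.05, in that order. Each shifts all genes of an array by a constant, so the 9 genes stayed 0.19 above it by construction. Over the other settings this distance ran from 0.17 with normexp to 0.25 with the probe of largest difference. Maf ranged from -0.81 to -0.42, and lost its 1.5-fold call with median and spike-in scaling. Cebpd, at -0.50, came to -0.16 with spike-in scaling, and Cebpa changed sign as given above. Normexp lowered the Tfec difference from 2.35 to 1.90, where its untreated intensity was 195. The cause of these moves was not tested.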

Other observations

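Genes that control the amount or location of these factors were read as well. Trib1, which encodes an adaptor that targets C/EBPα for degradation, had intensities of 1296 in untreated BMDMs and 1865 after IL-4 (log2 difference 0.43, and 0.34 at its other probe). Trib3 had a log2 difference of 0.44 and Trib2 of 0.18. The genes that hold TFEB in the cytoplasm through mTORC1 were Mtor, at -0.03, Rptor, at 0.25, Flcn, at -0.01, and Fnip1, at -0.11, all inside 2-fold. Fnip2 was 1.52-fold lower, with intensities of 2349 and 1660. Of these 11 regulator genes, 0 were at least 2-fold higher and 1, Rragd, was at least 2-fold lower, with a median of -0.02 over the 10 genes measured on both arrays.

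In the table of processed log2 values, Tfec had 1.63 in untreated BMDMs and 3.98 after IL-4, and Maf had 2.69 and 1.94. For the 11 probes the difference between these columns was within 0.001 of the scanner value, and the median of all genes moved by only 0.0006. The processed values are therefore not a separate check of the scanner values.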
